A study of Mus musculus with 4 samples.

Results

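The loci described here are those of 10 transcription factors that direct the early mesoderm, endoderm and trophoblast lineages of the mouse: T (brachyury), Eomes, Mixl1, Gsc, Sox17, Gata6, Gata4, Foxa2, Cdx2 and Hand1. Each locus was taken as the window of 50 kb on either side of a fixed position given for the gene on mouse build mm9. These positions are given to the nearest 5 kb or so and are not transcription start sites, so distances below are from the position and not from a start site. The windows held 17 of 40570 islands of histone H4 lysine 16 acetylation (H4K16ac) called in embryonic stem cells (ESC) and 36 of 48278 islands called in neural progenitor cells (NPC). An island is a broad stretch in which neighbouring windows of the genome hold more reads than the background. No measured value entered the choice of the loci, although the choice was made with earlier results of these data in view.

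The mark was mapped by ChIP-seq, in which chromatin cut with micrococcal nuclease (MNase) is pulled down with an antibody and its DNA sequenced. The ESC were undifferentiated cells of the line 46c, which carries a GFP reporter in Sox1, a gene switched on in neural progenitors. The NPC were derived from the same line over 5 days with the supplements NB27 and Neuro2 and were sorted for GFP, and the purity of the sort was not checked here. Each cell type had 1 H4K16ac library and 1 MNase input library, and the input reads were not analysed here. All called islands together held 17935144 ESC reads and 24386370 NPC reads, and total library depth was not given in the sources used here. Because each cell type had a single library, no difference below has a replicate check or a test, and the identity of the cells was not checked against marker genes.

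As background, H4K16ac is laid down mainly by the acetyltransferase MOF (Kat8) and is found at active genes and at some enhancers. Regulators of the non-neural lineages are silent or low in undifferentiated ES cells, where many of their promoters carry both activating and repressive histone marks and are held ready for differentiation. They act mainly outside the neural programme that the sorted progenitors follow. Eomes and Foxa2 are also active in some neural tissue, as given below. The promoters of such genes tend to be rich in CpG dinucleotides.

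Promoter sequences are shown for 4 loci that span the range seen below: Gsc, whose position lay in an ESC island, Cdx2 and T, which had an ESC island close by, and Foxa2, which had no island of either cell type in its window. They come from RefSeq on build GRCm38.p6, which is not the build of the islands, so they cannot be placed inside or outside an island. Each runs from 250 bases before to 50 bases after an annotated start, 5′ to 3′ on the gene's strand, with CpG dinucleotides in capitals. Gsc is on the minus strand at chr12:104473187-104473486, Cdx2 on the minus strand at chr5:147307200-147307499, T on the plus strand at chr17:8434173-8434472 and the first listed start of Foxa2 on the minus strand at chr2:148046920-148047219.
Gsc: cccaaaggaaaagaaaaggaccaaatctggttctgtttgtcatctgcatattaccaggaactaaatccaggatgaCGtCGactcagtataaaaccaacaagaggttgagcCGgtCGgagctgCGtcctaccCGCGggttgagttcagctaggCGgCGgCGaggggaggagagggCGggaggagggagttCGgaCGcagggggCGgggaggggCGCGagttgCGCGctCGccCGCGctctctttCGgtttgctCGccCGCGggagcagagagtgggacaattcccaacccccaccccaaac
Cdx2: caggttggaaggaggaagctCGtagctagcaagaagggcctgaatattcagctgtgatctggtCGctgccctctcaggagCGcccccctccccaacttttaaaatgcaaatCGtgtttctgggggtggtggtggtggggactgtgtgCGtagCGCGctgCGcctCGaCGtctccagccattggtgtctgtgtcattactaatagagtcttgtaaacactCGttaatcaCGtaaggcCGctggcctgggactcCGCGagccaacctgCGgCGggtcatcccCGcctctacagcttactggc
T: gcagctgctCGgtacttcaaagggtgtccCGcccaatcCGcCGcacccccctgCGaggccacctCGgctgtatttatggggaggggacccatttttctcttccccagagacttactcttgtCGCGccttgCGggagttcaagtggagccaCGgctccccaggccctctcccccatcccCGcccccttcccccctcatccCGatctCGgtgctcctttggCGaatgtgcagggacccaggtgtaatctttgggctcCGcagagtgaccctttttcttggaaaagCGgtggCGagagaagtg
Foxa2: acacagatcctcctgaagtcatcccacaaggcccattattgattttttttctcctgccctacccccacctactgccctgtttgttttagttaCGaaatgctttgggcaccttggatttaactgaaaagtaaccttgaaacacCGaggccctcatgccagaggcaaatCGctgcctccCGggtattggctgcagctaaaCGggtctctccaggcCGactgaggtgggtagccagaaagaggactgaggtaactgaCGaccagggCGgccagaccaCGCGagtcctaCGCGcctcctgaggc

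Of the 10 genes, 5 had promoters among the 32851 RefSeq windows of this length, and all 5 held more CpG than the median window, which had 7. Gsc had 25 CpG (percentile 81.6 of all windows), Cdx2 had 18 (percentile 70.3), T had 17 (percentile 68.6) and Eomes had 10 (percentile 56.5). The 3 listed starts of Foxa2 had 12, 23 and 13.

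In ESC, 7 of the 10 loci had an H4K16ac island within 10 kb of the position, and in NPC 1 of the 10 did. With islands of at least the median reads of their list these counts were 2 and 1, against 17.0% and 20.4% of the centres of windows tiled over the autosomes. NPC islands were nonetheless the more numerous and the wider in these windows, and lay farther out. Across 24709 windows of 100 kb tiled over the autosomes, 29.0% of window centres were within 10 kb of an ESC island and 32.5% within 10 kb of an NPC island. Among the windows called in both cell types these shares were 52.9% and 60.3%, against 7 and 1 of 9 such loci. The tiled windows include stretches far from any gene, so they show the level of the genome and not that of other gene loci. The distance of 10 kb was chosen after seeing the data. Within 5 kb, the loci numbered 6 in ESC and 1 in NPC, the latter exactly at the limit, against 19.9% and 24.8% of window centres.

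**Figure D1:**
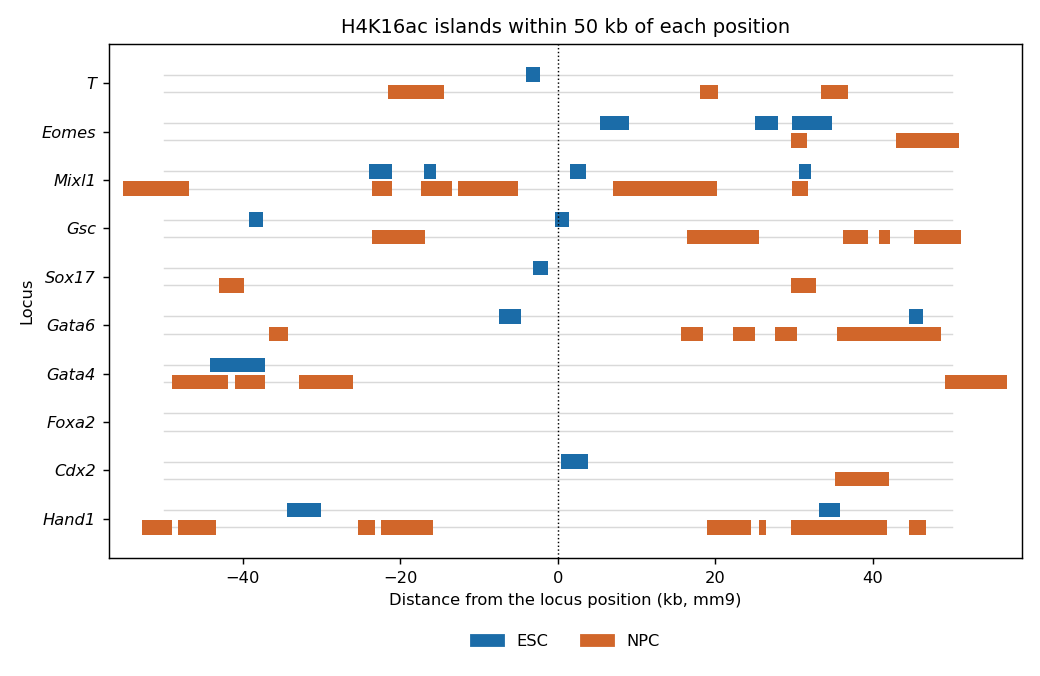
Islands of H4K16ac in ESC (blue, upper line of each locus) and NPC (orange, lower line) by distance in kb from the position of each of the 10 loci, with lower genome coordinates to the left. ESC islands lie within 10 kb of the dotted line at 7 loci and NPC islands at 1, and Foxa2 has none.

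The position itself was covered by an ESC island at 1 locus, Gsc, and by an NPC island at 0 loci, against 7.77% and 12.5% of window centres. Since positions are given to the nearest 5 kb or so, cover of a position and distances under 5 kb lie within that precision. The nearest ESC island was nearer than the nearest NPC island at 7 of 10 loci, against 53.8% of window centres. The median distance to the nearest island was 3.40 kb in ESC and 21.2 kb in NPC, where all window centres had medians of 29.0 kb and 32.4 kb. Window centres in windows called in both cell types had medians of 9.0 kb in ESC and 6.0 kb in NPC, and the 9 loci called in both had medians of 2.2 kb and 16.4 kb. Against this level the loci were nearer to an ESC island and farther from an NPC island, whereas against all windows they were nearer to both.

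**Figure D2:**
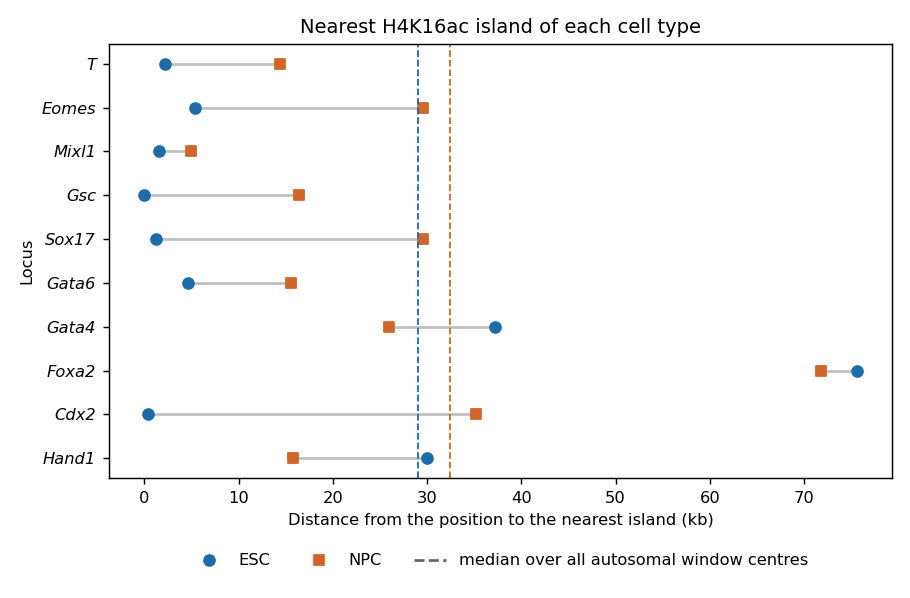
Distance in kb from each position to the nearest ESC island (circles) and NPC island (squares), joined by a line for each locus. Dashed lines are the medians over 24709 autosomal window centres, 29.0 kb in ESC (blue) and 32.4 kb in NPC (orange), and at Gata4, Foxa2 and Hand1 the NPC island is the nearer.

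Within 5 kb of the position on either side, ESC islands held 11.4% of the bases and reached 6 loci, whereas NPC islands held 0 bases. In every bin farther out NPC cover was the higher, starting with 6.0% in ESC and 8.0% in NPC from 5 to 10 kb. It was highest from 15 to 20 kb, at 29.2% against 1.6% in ESC, and came from 5 loci there. Windows called in both cell types had 24.4% in NPC in the bin of 15 to 20 kb. From 25 to 30 kb NPC cover of the loci fell to 9.6%, below the 12.3% of all autosomal windows. In all autosomal windows the covered share was flat, near 7.68% in ESC and 12.5% in NPC in the bin next to the centre. In windows called in both cell types it was 15.9% and 24.3% in that bin, so the ESC share of the loci was above the first level and below the second, and the NPC share was below both. A second rise in ESC, to 12.6% from 30 to 35 kb, came from 3 loci.

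**Figure D3:**
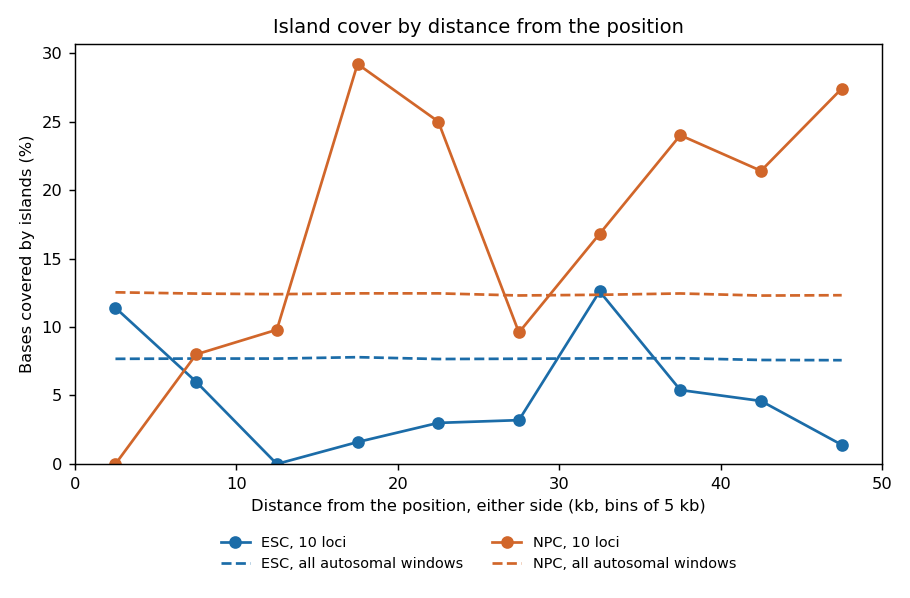
Share of bases covered by islands in bins of 5 kb from the position, both sides added, for the 10 loci (solid lines with points) and all autosomal windows (dashed), in ESC (blue) and NPC (orange). NPC cover of the loci starts at 0 and reaches 29.2% at 15 to 20 kb, while ESC cover starts at 11.4%.

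The 7 ESC islands within 10 kb were ordinary members of their list. They were 1800 to 3600 bp wide and held 145 to 349 reads, or 80.6 to 114 reads per kb. Their widths lay between percentiles 25.1 and 57.5 of all ESC islands and their densities between percentiles 31.2 and 67.3. Reads were below the list median of 277 in 5 of the 7. The 2 loci with an ESC island of at least median reads within 10 kb were Eomes and Cdx2, and the 1 locus with such an NPC island was Mixl1. None of the 7 overlapped an NPC island, whereas 7 of the 10 ESC islands farther out did. The 7 lay wholly within 10 kb, where only Mixl1 had NPC islands. Their lack of overlap thus largely follows from that count and is not a separate result. In all autosomal ESC islands 40.8% overlapped an NPC island. Of the 36 NPC islands, 9 overlapped an ESC island, all beyond 10 kb, against 34.6% of autosomal NPC islands.

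Of the 4 genes of the primitive streak and early mesendoderm, T, Mixl1 and Gsc had an ESC island within 5 kb of the position. Eomes had one at 5.40 kb. Of all window centres, 19.9% were within 5 kb and 29.0% within 10 kb of an ESC island. The nearest islands of T, Mixl1 and Gsc held fewer reads than the list median of 277, and that of Eomes held more. T, the T-box factor needed for mesoderm and notochord, was taken at 8.63 Mb on chromosome 17. Its only ESC island, at 8626001 to 8627800, was 2.2 kb from the position and held 170 reads in 1.8 kb, or 94.4 reads per kb. The 3 NPC islands lay 14.4 kb, 18.0 kb and 33.4 kb away, with 498 reads in 7.2 kb, 273 in 2.4 kb and 260 in 3.4 kb. The middle one of these, at 8648001 to 8650400, was denser than 97.6% of NPC islands, at 114 reads per kb. No base of the T window was called in both cell types, and 32.4 kb around the position were free of NPC islands.

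Eomes encodes another T-box factor, active in the streak, in definitive endoderm and in trophoblast, and later in neuronal progenitors of the cortex. Its position, 118.39 Mb on chromosome 9, had 3 ESC islands, all on the side of higher coordinates, where Golga4 is the next protein-coding gene. The nearest, at 118395401 to 118399000, was 5.40 kb away with 327 reads at 90.8 reads per kb. The next held 243 reads in 3 kb, and the third, at 118419801 to 118424800, held 310 reads in 5 kb at 62.0 reads per kb (percentile 3.59 of the list by density). The 2 NPC islands were 29.6 kb and 43.0 kb away, with 161 and 537 reads, and the nearer of them overlapped the third ESC island over 1.8 kb. Eomes was the only one of the 10 loci with more ESC than NPC bases under islands, 11.6 kb against 9 kb in the window.

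Mixl1, a homeobox gene of the streak, lies between Lin9 and Acbd3 and was taken at 182.625 Mb on chromosome 1. It was the most crowded of the streak loci, with 4 ESC and 6 NPC islands, and the only locus with NPC islands within 10 kb. The nearest ESC island, at 182626601 to 182628600, was 1.60 kb from the position and held 185 reads at 92.5 reads per kb. NPC islands flanked it on both sides without touching it: 1 of 7.6 kb with 500 reads ended 5 kb below the position, and 1 of 13.2 kb with 1074 reads began 7.00 kb above. The 12 kb between them, which held the ESC island, was the shortest NPC-free stretch around any of the 10 positions. The other 3 ESC islands, of 245, 144 and 149 reads, each overlapped an NPC island, which held 201, 267 and 150 reads.

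Gsc (goosecoid), a homeobox gene of the organizer, was taken at 105.71 Mb on chromosome 12, between Serpina3n and Dicer1. An ESC island at 105709601 to 105711400 covered the position with 145 reads in 1.8 kb, or 80.6 reads per kb. It was the least dense of the 7 nearby ESC islands. The second ESC island, 37.4 kb away, held 198 reads. The 5 NPC islands held 106 to 646 reads each, and the nearest began 16.4 kb from the position. Together they covered 25.4 kb of the window, against 3.6 kb in ESC, and no base was called in both.

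The 4 endoderm regulators differed among themselves. Sox17 and Gata6 had an ESC island within 5 kb of the position, Gata4 had only distant islands and Foxa2 had none. Sox17, an HMG-box factor of definitive endoderm, was taken at 4.485 Mb on chromosome 1. Its only ESC island, at 4481801 to 4483800, held 227 reads in 2 kb, and its 114 reads per kb made it the densest of the 17 ESC islands at these loci (percentile 67.3 of the list). The 2 NPC islands were 29.6 kb and 39.8 kb away with 263 and 166 reads. The farther one, at 51.9 reads per kb, lay at percentile 0.302 of the NPC list by density. No base was called in both.

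Gata6, a zinc finger factor of primitive endoderm, was taken at 11.06 Mb on chromosome 18. The nearest ESC island was 4.6 kb away, at 11052601 to 11055400, with 243 reads in 2.8 kb. A second ESC island of 142 reads lay 44.6 kb away inside a 13.2 kb NPC island of 866 reads, which with an island of the same width at Mixl1 was the widest NPC island of these windows. The other 4 NPC islands were alike, at 2.4 to 2.8 kb and 180 to 218 reads, and the nearest was 15.6 kb from the position. NPC islands covered 24 kb of the window and ESC islands 4.6 kb.

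Gata4, a zinc finger factor of endoderm and heart, was taken at 63.85 Mb on chromosome 14, between Neil2 and Blk. Its only ESC island, at 63805801 to 63812800, was 37.2 kb away on the Neil2 side and was the widest ESC island of the 10 windows, with 660 reads in 7 kb. A pair of NPC islands with 468 and 319 reads overlapped it over 6.2 kb. Another NPC island, of 667 reads, was the nearest to the position at 26 kb, and one of 606 reads began at 49.2 kb and ran past the edge of the window. The Gata4 position itself therefore lay in a stretch without ESC islands of 111.4 kb and without NPC islands of 75.2 kb.

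Foxa2, a forkhead factor of endoderm, node and floor plate, was taken at 147.87 Mb on chromosome 2, between Pax1 and Sstr4. It was the only locus called in neither cell type, a state found in 25.6% of autosomal windows. The nearest ESC island was 75.6 kb away, at 147945601 to 147949000, with 256 reads in 3.4 kb. The nearest NPC island was on the same side, 71.8 kb away, at 147941801 to 147944400, with 200 reads in 2.6 kb. The stretch free of islands of both cell types was 196.6 kb long. Reads outside islands are not part of the lists, and the mark may be present below the calling threshold in such a stretch.

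The trophoblast regulators were unlike each other. Cdx2, a caudal-type homeobox gene of the trophectoderm, was taken at 148.115 Mb on chromosome 5, between Pdx1 and Urad. Its only ESC island, at 148115401 to 148118800, began 0.401 kb from the position with 349 reads in 3.4 kb, the most reads of the 7 nearby ESC islands. Its only NPC island lay 35.2 kb away with 456 reads in 6.8 kb. The position was in an NPC-free stretch of 228 kb, the longest after Foxa2, whose stretch was 323.8 kb.

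Hand1, a basic helix-loop-helix factor of trophoblast giant cells, lateral mesoderm and heart, was taken at 57.645 Mb on chromosome 11, between Sap30l and Larp1. It had the most NPC islands, 8, which covered 35.4 kb of the window, and none was nearer than 15.8 kb. The 2 ESC islands, with 390 and 210 reads, were 30 kb and 33.2 kb away on opposite sides, and the second lay inside an NPC island of 12.2 kb with 906 reads. The narrowest NPC island of all the windows, 800 bp with 94 reads at 57670601 to 57671400, was also the densest, at 118 reads per kb (percentile 98.2 of the list). By reads it lay only at percentile 1.77 of the list, and by width at percentile 0.679. A further Hand1 island, at 57619601 to 57621800, held 230 reads at 105 reads per kb (percentile 95.2).

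Over the windows as a whole, 9 of 10 loci had islands in both cell types, 0 in ESC only, 0 in NPC only and 1 in neither. Among autosomal windows, 62.5% had an ESC island and 56.6% an NPC island, with 44.7% called in both, 17.8% in ESC only and 11.9% in NPC only. ESC islands covered 49.2 kb of the 10 windows, or 4.92%, below the mean of 7.68 kb per 100 kb of all autosomal windows. NPC islands covered 171.2 kb, or 17.1%, above the mean of 12.4 kb per window. In windows called in both cell types the means were 15.9 kb in ESC and 24.2 kb in NPC, and the 9 loci in that state had lower means in both, 5.47 kb and 19.0 kb. The medians of such windows were 9.6 kb and 16.6 kb. The middle locus of the 9 was Gata6 in ESC, at 4.6 kb, and Gata4 in NPC, at 18.6 kb. By median the 9 loci were thus lower in ESC and higher in NPC. In total, NPC islands covered 3.48 times as many bases as ESC islands at the loci, and 1.60 times as many in the whole lists. More bases were covered in NPC than in ESC at 8 of 10 loci, against 41.0% of autosomal windows. That share includes the 17.8% of windows called in ESC only and the 25.6% called in neither, which cannot hold more NPC bases. It is therefore a low level for loci of which 9 of 10 were called in both. Cover per locus ranged from 0 to 11.6 kb in ESC (median 4.1 kb) and from 0 to 35.4 kb in NPC (median 15.8 kb). The medians of all autosomal windows were 1.6 kb in ESC and 2.0 kb in NPC. By median the loci therefore lay above all windows in both cell types, although their ESC mean was lower. The 17.8 kb called in both cell types made up 36.2% of the ESC and 10.4% of the NPC bases, and lay at Eomes, Mixl1, Gata4, Gata6 and Hand1. The share of bases called in both was not computed over autosomal windows. These shares, and the lack of shared bases at other loci, therefore cannot be called low or high.

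**Figure D4:**
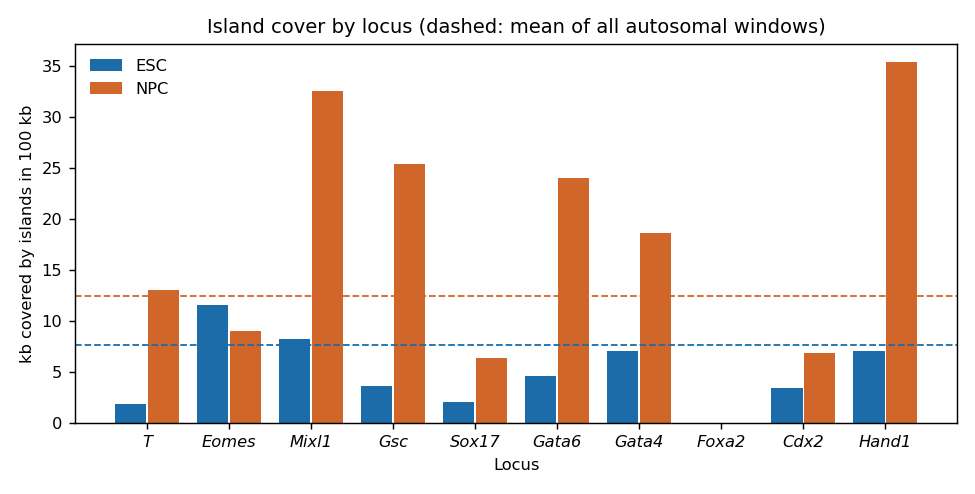
Bars give the kb of each 100 kb window covered by ESC (blue) and NPC (orange) islands, and dashed lines the means of all autosomal windows, 7.68 kb and 12.4 kb. NPC cover exceeds ESC cover at 8 loci, with Hand1 (35.4 kb) and Mixl1 (32.6 kb) highest, and Eomes is the exception among loci with islands.

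The reads of all islands touching the windows came to 4337 in ESC and 13975 in NPC, or 242 and 573 per 1000000 island reads of each list. This gave a log2 NPC over ESC of 1.24, with an exact Clopper-Pearson 95% interval of 1.20 to 1.29. Whether duplicate reads were removed is not given in the sources used here. The intervals treat reads as independent and cover counting error at most, and would be too narrow if duplicates were kept. With 1 library per cell type they do not cover variation between cultures. Each count holds only reads in the called islands of its list, and reads outside islands are left out. ESC and NPC islands shared no base at T, Gsc, Sox17 and Cdx2, so the ratios there compare different bases. By locus, T had 170 ESC and 1031 NPC reads, a log2 of 2.16 (1.92 to 2.40). Gsc had 343 and 1793 (1.94, 1.78 to 2.11), and Hand1 had 600 and 3107 (1.93, 1.80 to 2.06). Gata6, Mixl1, Gata4 and Sox17 had values of 1.67, 1.48, 1.20 and 0.48. Cdx2, with 349 and 456 reads, was at -0.06 (-0.26 to 0.15), an interval that includes 0, and Eomes was at -0.78 (-0.92 to -0.63). The median of the 9 loci was 1.48, and 7 of 9 were above 0. The values depended on the window: with 100 kb on each side T was at 0.10, Mixl1 at 0.02, Gata4 at -0.0024, Sox17 at -0.82 and Cdx2 at 1.42, Gsc at 3.49 and Hand1 at 0.90, and with 25 kb Gata6 was at 0.34. The 11054 autosomal windows called in both cell types had a median of -0.16 with an SD of 1.63, and 45.0% of them were above 0.

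These ratios went with the called width and not the density of reads. Summed island width was 1.80 kb in ESC and 13 kb in NPC at T, and the ratio of widths, NPC over ESC, ranged from 0.862 at Eomes to 7.39 at Gsc. Reads per kb of island were lower in NPC at all 9 loci, even without scaling to island reads, by log2 values from -0.08 at Hand1 to -0.76 at Sox17. Per kb and scaled to island reads, the value over all windows was -0.69. The median island of the whole list was likewise less dense in NPC, at 76.6 against 93.3 reads per kb.

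The medians of width and density of the islands at these loci lay slightly below those of their lists. In ESC the 17 islands had a median width of 2600 bp, against 3000 bp in the list, and a median density of 90 reads per kb. In NPC the 36 islands had a median of 3900 bp, against 4200 bp, and a density of 75.0 reads per kb. Among the 17 ESC islands, 0 were in the densest 10% of their list and 5 lay above its median density. Of the NPC islands, 4 were among the densest 10% and 13 of 36 above the median. Those 4 were 1 island each at T and Gata4 and 2 at Hand1. Broad islands of at least 8000 bp numbered 0 in ESC and 6 in NPC, at Eomes, Mixl1, Gsc, Gata6 and Hand1. In the whole lists 14.7% of ESC islands and 24.1% of NPC islands were this broad, so 6 of 36 was no more than the level of the list.

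**Figure D5:**
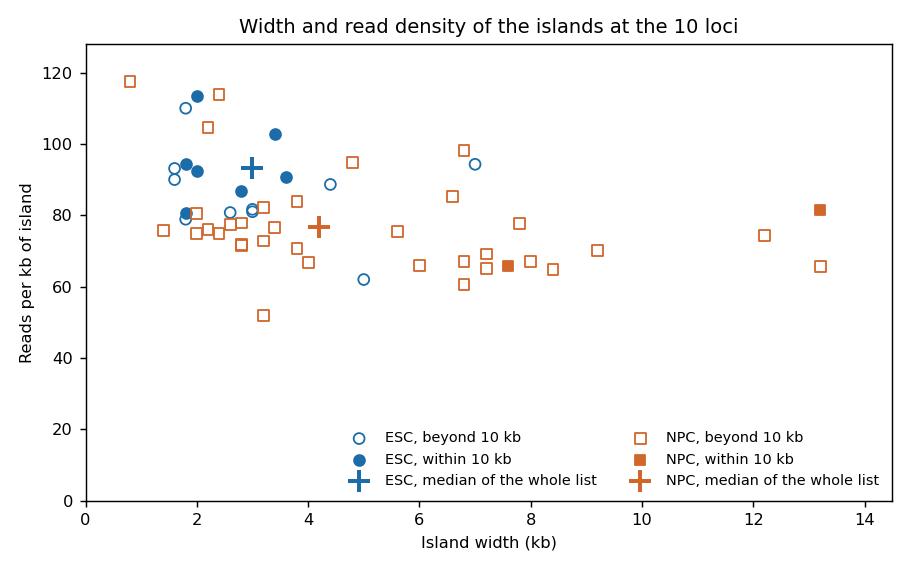
Width in kb and reads per kb of the 17 ESC (circles) and 36 NPC islands (squares), filled where the island is within 10 kb of the position, with crosses at the medians of the whole lists. The filled ESC points lie between 1.8 and 3.6 kb, and the filled NPC points are the 2 islands that flank Mixl1.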

How the data were processed

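H4K16ac islands were compared around 10 loci between 1 ESC and 1 NPC library. The submitters' processing notes name build mm9, SICER 1.1 and bedtools 2.10.1, and, without their roles, Bowtie 0.12.7, SAMtools 0.1.7 and CASAVA 1.8.2. Windows of 200 bp, gaps of 600 bp and an FDR of 0.01 are written in the names of the lists. The deposited values were read as counts of reads in each island, not scaled to depth or to input. Duplicate removal and the use of input in the calls are not given in the sources used here, and depth outside islands is unknown.

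Coordinates were moved to count from 1. An island belonged to a locus from 1 shared base with its window, and its whole count was used. Reads were scaled to 1000000 island reads. Autosomes were tiled in windows of 100 kb as the genome level. No mm9 annotation was used. Neighbouring genes and promoters came from RefSeq on GRCm38.p6, by name and sequence. The loci, lists and windows were chosen with earlier results of these data known, and all 10 loci are named. No test was possible with 1 library per cell type. The code was tested on simulated data. Python 3.11.15, numpy 2.4.6, pandas 2.3.3, scipy 1.17.1 and matplotlib 3.10.9 were used.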

Additional observations from a re-analysis of the deposited data

How the results depend on the processing

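Of 145 values recomputed under other settings, 67 stayed near the reported value, 65 moved and 13 changed sign. Of the 13, 3 were values of Cdx2, whose reported interval includes 0. A count was taken as moved beyond 1.5 times, and a ratio, median or share when it left its 95% interval. No paired analysis was possible because each cell type had 1 library, which also left no library to leave out. The unknown depth outside islands limits every statement on uncalled stretches. The cause was not tested, beyond what fewer or more islands or bases give by construction.

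With windows of 25 kb on each side, NPC islands were at 5 loci, and 4 loci had islands of both cell types, 3 of ESC only, 1 of NPC only and 2 of neither. The windows then held 9 ESC and 13 NPC islands over 22 kb and 72 kb. At 100 kb on each side, 0 loci were without islands, and 48 ESC and 71 NPC islands covered 207 kb and 434 kb. With islands of at least the median reads of their list, ESC islands were at 4 loci, with 4 loci called in both, 4 in NPC only and 2 in neither. These were 5 ESC islands over 23.4 kb and 18 NPC islands, and 2 loci had such an ESC island within 10 kb. States of autosomal windows were not computed with 25 kb or 100 kb on each side, or with this read minimum. The counts of states under these settings therefore have no genome level beside them. A position covered by an ESC island was seen at 1 locus, but 6 loci had one within 5 kb and 7 within 10 kb, against 1 and 1 in NPC. The limit of 10 kb, with its read minimums, was added after seeing the data.

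The log2 of reads over all windows was 1.11 with reads shared out by bases in the window, 1.69 without scaling, 1.66 scaled to reads of islands overlapping the other list, 0.99 at 25 kb and 0.37 at 100 kb on each side. It turned to -0.69 per kb of island, as did T (-0.70), Mixl1 (-0.73), Gsc (-0.94), Gata4 (-0.67), Gata6 (-0.71), Sox17 (-1.20) and Hand1 (-0.52). At 100 kb on each side, Gata4 (-0.0024), Sox17 (-0.82) and Cdx2 (1.42) changed sign. Cdx2 was also above 0 without scaling (0.39) and scaled to reads of islands overlapping the other list (0.35).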
